A study of Mus musculus with 4 samples.

Results

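The genes described here make cholesterol and fatty acids or control that synthesis, and their transcripts were compared between Tomato-positive and Tomato-negative epithelial cells of mouse oral tumours. They were chosen by symbol, as a set of 30 genes: 15 enzymes of sterol synthesis, 5 genes of the SREBP regulatory axis and of sterol transfer, and 10 enzymes that make, elongate or desaturate fatty acids. The authors' deposited table has 37574 rows, of which 29 belong to members of this set, and 28 of these were tested. The transcript level of Hmgcs1, the synthase that feeds HMG-CoA into the pathway, was not analysed here, only its promoter, and Acacb was listed but not tested.

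The tumours arose in C57BL/6 mice given the carcinogen 4NQO for 26 weeks. The mice carried Bmi1CreER, a tamoxifen-activated Cre recombinase driven by the Bmi1 gene, and a tdTomato reporter, and all were injected with tamoxifen 24 hours before collection. Cells that stained for the epithelial surface protein EpCAM were then sorted into a Tomato-positive fraction, in which Cre had switched on the reporter, and a Tomato-negative fraction, and RNA of 2 samples of each, 4 in all, was sequenced. Both fractions therefore share the strain, the reporter alleles, the carcinogen and the tamoxifen, and the label marks cells with Bmi1 promoter activity around the time of the pulse, with any of their daughters formed in that time. The labels do not state if each sample is a different animal or pool, so the authors' p-values may measure technical spread alone.

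Cells build cholesterol from acetyl-CoA through mevalonate, isoprenoid diphosphates, squalene and lanosterol, and build fatty acids from the same acetyl-CoA through malonyl-CoA. The transcription factors SREBP1 and SREBP2 drive most of these genes: when membrane sterol is low, the escort protein SCAP carries them from the endoplasmic reticulum to the Golgi, where they are cut and released, and when sterol is high, INSIG proteins hold SCAP back. In stratified epithelia the products go into membranes of growing cells and into the lipids of the surface barrier.

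The promoters of several members are shown first, because the genes of the set are known for shared control through short DNA motifs. A promoter window from 250 bases before to 50 bases after the start of transcription was at hand from RefSeq (build GRCm38.p6) for 23 of the 30 genes, some with more than 1 start. Capitals mark matches, on either strand, to the motif named for each line, and positions count back from the start, so that -1 is the base before it. Only Hmgcs1 held the sterol regulatory element TCACNCCAC, and its line shows 33 bases around that match at chr13:119690202-119690234 on the plus strand. The Insig1 line, with an E-box (CACGTG), lies at chr5:28071222-28071371 on the plus strand, from -190 to -41. The other lines run from -150 to -1 with CCAAT boxes (CCAAT or its complement ATTGG) in capitals: Mvk at chr5:114444119-114444268 (plus strand), Ebp at chrX:8193513-8193662 (minus strand), Elovl6 at chr3:129532236-129532385 (plus strand) and Idi1 at chr13:8885456-8885605 (plus strand). Insig1, Mvk, Ebp and Elovl6 are shown because their transcripts were lower in Tomato-positive cells, and Idi1 because its level was nearly the same in both fractions.
Hmgcs1: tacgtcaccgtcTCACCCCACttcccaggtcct
Insig1: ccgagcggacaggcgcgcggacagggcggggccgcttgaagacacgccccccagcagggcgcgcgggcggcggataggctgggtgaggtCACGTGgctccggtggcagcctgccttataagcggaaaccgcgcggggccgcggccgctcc
Mvk: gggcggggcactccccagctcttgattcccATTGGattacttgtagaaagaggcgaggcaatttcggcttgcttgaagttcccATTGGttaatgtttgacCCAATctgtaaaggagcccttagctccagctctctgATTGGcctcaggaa
Ebp: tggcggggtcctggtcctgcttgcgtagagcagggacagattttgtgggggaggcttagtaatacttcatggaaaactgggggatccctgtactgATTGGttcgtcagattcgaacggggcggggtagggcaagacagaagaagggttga
Elovl6: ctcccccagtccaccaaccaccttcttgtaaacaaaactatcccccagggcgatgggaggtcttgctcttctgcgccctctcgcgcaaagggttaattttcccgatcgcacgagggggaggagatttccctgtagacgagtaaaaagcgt
Idi1: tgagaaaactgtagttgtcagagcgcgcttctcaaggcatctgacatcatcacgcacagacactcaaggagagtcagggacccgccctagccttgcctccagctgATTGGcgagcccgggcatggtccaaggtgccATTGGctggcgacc

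CCAAT boxes, the letters bound by the factor NF-Y, stood in the windows of 18 of the 23 members (78.3%), against 41.1% of the 27025 genes in the promoter table and 42.6% of those tested here. By role they stood in 11 of 12 sterol enzymes, 3 of 4 SREBP axis genes and 4 of 7 fatty acid enzymes. The printed stretch of Mvk holds 4, that of Idi1 holds 2 and that of Ebp holds 1, while no window of Elovl6 or Acaca held any of the 4 motifs searched. GC boxes (GGGCGG, the letters bound by Sp1) stood in 18 of the 23 members (78.3%), against 38.2% of all genes in the table and 66.9% of those tested. E-boxes stood in Insig1, Dhcr7, Hsd17b7 and Scap, 17.4% of members, against 8.09% of all genes and 11.5% of those tested, and the sterol regulatory element in 4.35%, against 1.44% and 1.41%. All motifs were read on both strands, and overlapping matches were counted. Of the members whose transcripts were lower, 6 of 7 with a window held a CCAAT box, and of those that did not pass the test 10 of 14 did. A match is a description of letters, and its absence says only that these letters are not in these windows.

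**Figure D1:**
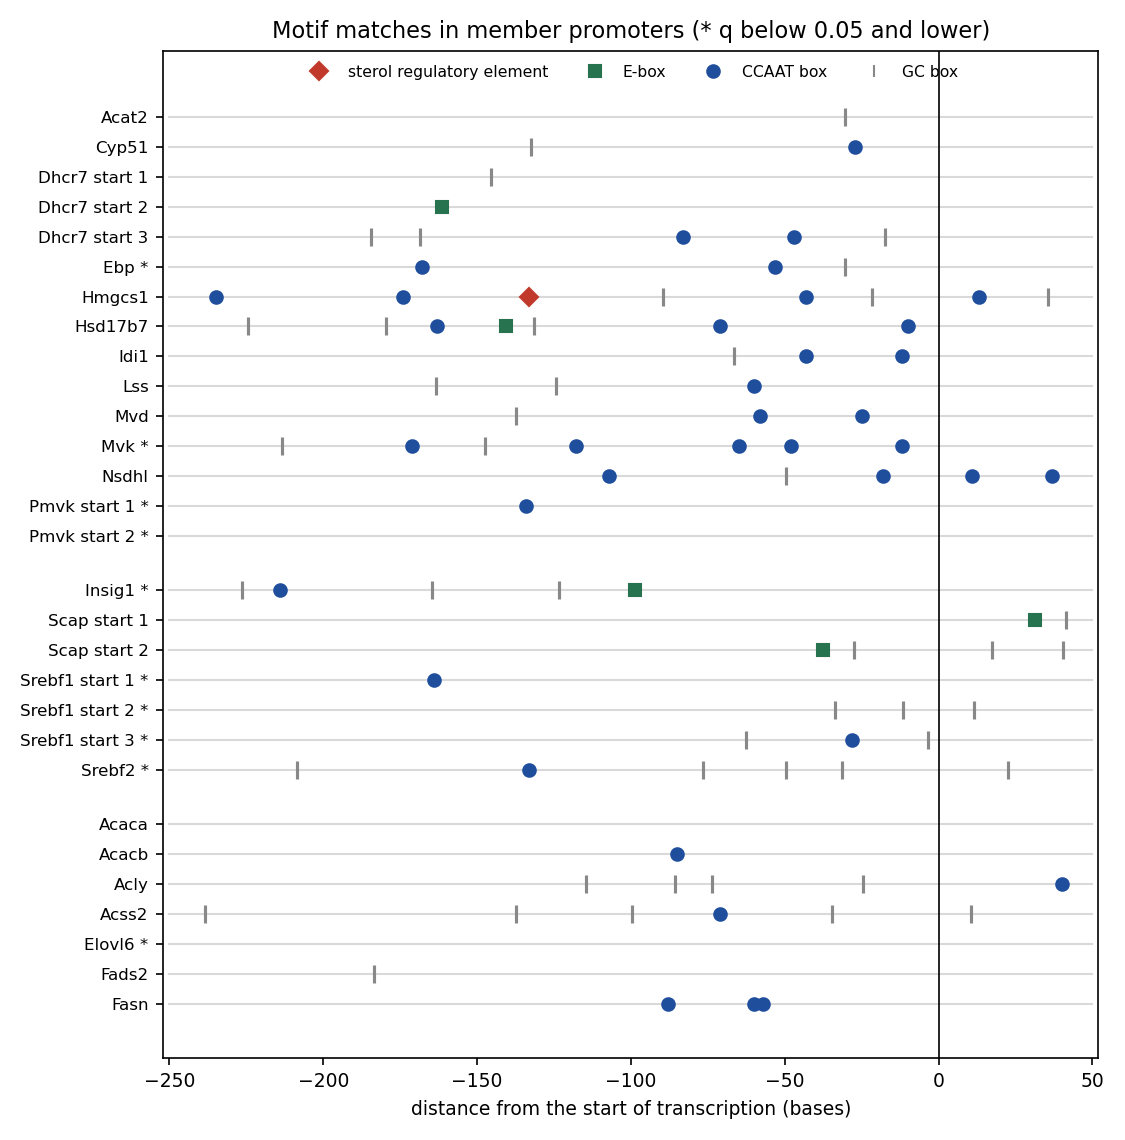
Matches to the 4 motifs in each promoter window of 23 members, 1 line per start of transcription, by distance from the start in bases; an asterisk marks members with lower transcripts at q below 0.05. CCAAT boxes lie in 18 members among them 11 of 12 sterol enzymes, and the sterol regulatory element is in Hmgcs1 alone.

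No member passed the test as higher in Tomato-positive cells, and 9 of the 28 tested were lower. These were the mevalonate pathway enzymes Mvk, Pmvk and Fdps, the sterol isomerase Ebp, the regulators Srebf1, Srebf2 and Insig1, and the fatty acid enzymes Elovl6 and Fads1. Values are FPKM, fragments scaled to transcript length and to sequencing depth, with 1 group value per fraction from the authors' deposited table. They carry no SD, and the depth behind them is unknown. A gene was called where the authors' q-value, adjusted over all 16219 tested genes, was below 0.05. Among all tested genes 14.2% were called lower and 13.0% higher, and among the 11617 that reached 5 FPKM or more in either fraction these shares were 14.3% and 14.8%. The 9 lower members are 32.1% of those tested, so the set was called about as often as all genes in either direction together (27.2%), with every call on the lower side. The median log2 fold of the members, Tomato-positive over Tomato-negative, was -0.39, and that of all tested genes 0.02, and 23 of 28 members lay below 0 against 49.0% of all tested genes. In sorted bulk samples, fewer cells of a type with high expression and less RNA per cell cannot be told apart.

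**Figure D2:**
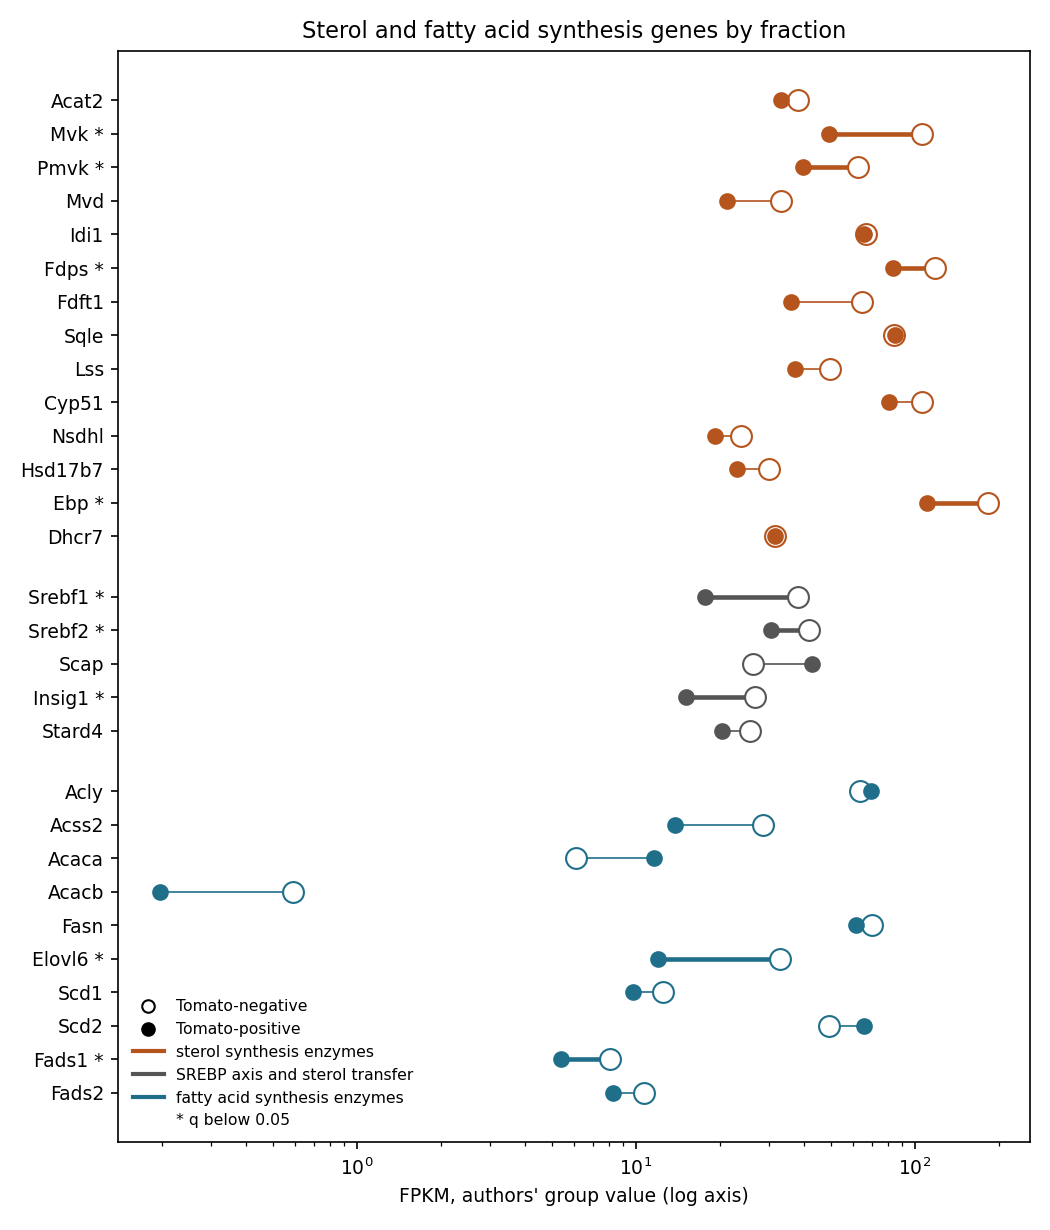
FPKM of 29 members in Tomato-negative (open) and Tomato-positive cells (filled) on a log axis, 1 group value per fraction, ordered along each pathway; thick lines and asterisks mark q below 0.05. The filled point lies left of the open one for 13 of 14 sterol enzymes, among them Dhcr7 and Idi1 with log2 folds of only -0.0004 and -0.02. It lies to the right for Scap, Acly, Acaca, Scd2 and, by 0.01 on the log2 scale, Sqle.

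Among the early steps of sterol synthesis, Mvk, Pmvk and Fdps were lower and the others did not pass the test. Acat2, which joins acetyl-CoA units, had 38.3 FPKM in Tomato-negative cells against 33.3 FPKM in the Tomato-positive fraction, at a q-value in the authors' deposited table of 0.452. Mvk (chromosome 5, 114894277 to 114910600, mm9), the kinase that phosphorylates mevalonate, fell from 106 to 49.1 FPKM. That 2.16-fold difference was the largest among the 14 sterol enzymes of the set, with a log2 fold of -1.11 and q = 0.00847 in the authors' deposited table. Pmvk, the next kinase, fell from 62.7 to 39.6 FPKM, and the authors' deposited table lists q = 0.00261. Mvd, the decarboxylase that follows, was listed at 33.1 and 21.3 FPKM, a fold close to that of Pmvk, for which the authors' deposited table gives q = 0.895. The 2 kinases passed the test, and the decarboxylase between them and the isoprenoid branch did not. Mvd is listed in a locus of 160 genes and each kinase in a locus of its own, so these calls are not read as a break along the pathway.

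Idi1, which isomerises isopentenyl diphosphate, stood at 67.1 and 66.0 FPKM. Fdps, which makes farnesyl diphosphate, fell from 118 to 83.3 FPKM, at a q-value in the authors' deposited table of 0.0166. Fdft1, which makes squalene, was listed at 64.6 and 36.0 FPKM, a larger fold than that of Fdps, and the authors' deposited table lists q = 0.139. Sqle, the squalene epoxidase and a known control point of the pathway, was level at 84.5 and 84.9 FPKM. Its log2 fold was 0.01, the only one above 0 among the 14 sterol enzymes, and it turned to -0.01 when centred on the median of all tested genes.

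After squalene, Ebp (chromosome X, 7762454 to 7770638), the most abundant sterol enzyme of the set in both fractions, fell from 184 to 111 FPKM. Its log2 fold was -0.73, for which the authors' deposited table gives q = 0.00451. Lss, which closes the ring to lanosterol, was listed at 49.8 and 37.1 FPKM, and Cyp51, the lanosterol demethylase, at 107 and 81.0 FPKM. Nsdhl and Hsd17b7, which act together in removing methyl groups, were listed at 23.8 and 19.2 FPKM and at 29.96 and 23.1 FPKM. None of these 4 passed the test, with q from 0.223 for Nsdhl to 0.506 for Lss in the authors' deposited table. Dhcr7, which makes cholesterol from its direct precursor, was listed at 31.4 FPKM in both fractions. Altogether 4 of 14 sterol enzymes were called lower (28.6%, against 14.2% of all tested genes) and 0 higher, their median log2 fold was -0.41, and their summed level went from 999 to 716 FPKM.

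Of the regulators, Insig1, Srebf1 and Srebf2 were lower and Scap had a higher level that did not pass the test. Insig1 (chromosome 5, 28397951 to 28405201), which retains the SREBP escort complex and is itself an SREBP target, fell from 26.7 to 15.2 FPKM. Its log2 fold was -0.82, and its q of 0.000405 equals the lowest in the authors' deposited table, a value that many genes share, Elovl6 among the members. Srebf1, the gene of the factor linked most closely to fatty acid synthesis, fell from 38.1 to 17.7 FPKM, a log2 fold of -1.11, at a q-value in the authors' deposited table of 0.0182. Srebf2, the gene of the factor linked most closely to sterol synthesis, fell from 41.6 to 30.6 FPKM, with a log2 fold of -0.44. Its q of 0.0470 in the authors' deposited table was the closest to the threshold among the called members. Scap, the escort, was listed at 26.3 and 42.8 FPKM, in the other direction, and the authors' deposited table lists q = 0.151. Stard4, which moves cholesterol between membranes, was listed at 25.7 and 20.3 FPKM, for which the authors' deposited table gives q = 0.399. Of these 5 genes 3 were lower (60%, against 14.2% of all tested genes) and 0 higher, with a median log2 fold of -0.44. The gene values join all transcripts of Srebf1, so its isoforms, which start at different promoters, were not separated.

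The fatty acid enzymes spread more widely, on both sides of 0. Elovl6 (chromosome 3, 129235303 to 129341413), which lengthens palmitate to stearate, had the largest difference of all tested members. It fell from 32.9 to 11.98 FPKM, a 2.75-fold difference with a log2 fold of -1.46 and q = 0.000405 in the authors' deposited table. Fads1, a desaturase of polyunsaturated fatty acids, fell from 8.05 to 5.38 FPKM, at a q-value in the authors' deposited table of 0.0286, and Fads2, which acts before it, was listed at 10.7 and 8.26 FPKM with q = 0.283. The core enzymes that build palmitate did not pass the test. Acly, which splits citrate to acetyl-CoA, was listed at 63.7 and 69.7 FPKM, and Fasn, the fatty acid synthase, at 70.0 and 61.5 FPKM. Acaca, the carboxylase that makes malonyl-CoA, was listed at 6.11 and 11.6 FPKM, the largest fold towards Tomato-positive cells in the set, and the authors' deposited table lists q = 0.467. Its relative Acacb, tied to the control of fatty acid oxidation, was listed at 0.590 and 0.196 FPKM and was not tested.

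Acss2, which makes acetyl-CoA from acetate, and Scd2 stood just outside the threshold. Acss2 was listed at 28.5 and 13.8 FPKM, a log2 fold of -1.04, for which the authors' deposited table gives q = 0.0545. The stearoyl-CoA desaturases, which put a double bond into saturated chains, had opposite signs. Scd1 was listed at 12.5 and 9.74 FPKM with q = 0.139, and Scd2 at 49.3 and 65.8 FPKM with q = 0.0638, both in the authors' deposited table. These paralogs can share reads, neither passed the test, and the difference between them was not tested. Scd2 was the more abundant in both fractions. Of the 9 tested fatty acid enzymes 2 were lower (22.2%, against 14.2% of all tested genes) and 0 higher (against 13.0%). A log2 fold above 0 was found in 3 of 9, from 0.13 for Acly to 0.93 for Acaca. The summed level of the list, with Acacb, went from 282 to 258 FPKM.

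Set side by side, the sterol and the fatty acid enzymes had medians of -0.41 and -0.37 on the log2 scale. The sterol enzymes ran from -1.11 to 0.01, and the fatty acid enzymes from -1.46 to 0.93. The ratio of summed FPKM, Tomato-positive over Tomato-negative, was 0.716 for the sterol enzymes and 0.914 for the fatty acid enzymes, whose sum is mostly Fasn, Acly and Scd2. The genes of a list are not replicates, so no test of the difference between the lists was made, and these are descriptions.

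The authors' test statistic did not follow the size of the fold in every member, both in loci of 1 gene and in loci shared between genes. Mvk, in a locus of its own, had a statistic of -2.34 at a log2 fold of -1.11. Fdps, in a locus of 2 genes, had nearly the same statistic, -2.28, at a log2 fold of -0.50. Mvd is listed in a locus of 160 genes spanning 4435 kb on chromosome 8, where its log2 fold of -0.64 had a statistic of -0.21 in the authors' deposited table. Pmvk, with a log2 fold of -0.66 and a locus of its own, had a statistic of -2.41 there. Acaca, in a locus of 3 genes, had a log2 fold of 0.93 with a statistic of 0.53, while the authors' deposited table gives 1.63 for Scd2, whose log2 fold was 0.42 in a locus shared with 1 other gene. Acss2 shares its locus with 8 other genes and Fdft1 with 1, the protease gene Ctsb. Of the called members, Fdps, Srebf1 and Srebf2 also share their loci. Of the 18 members with a locus of their own 6 were lower, and of the 10 in shared loci 3 were. Of all tested genes with a locus of their own, 32.7% were called in either direction and 17.0% were called lower. Of those in shared loci, 19.6% were called in either direction and 10.4% were called lower. The part of locus sharing in the statistics of Mvd, Acaca, Acss2 and Fdft1 was not tested.

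**Figure D3:**
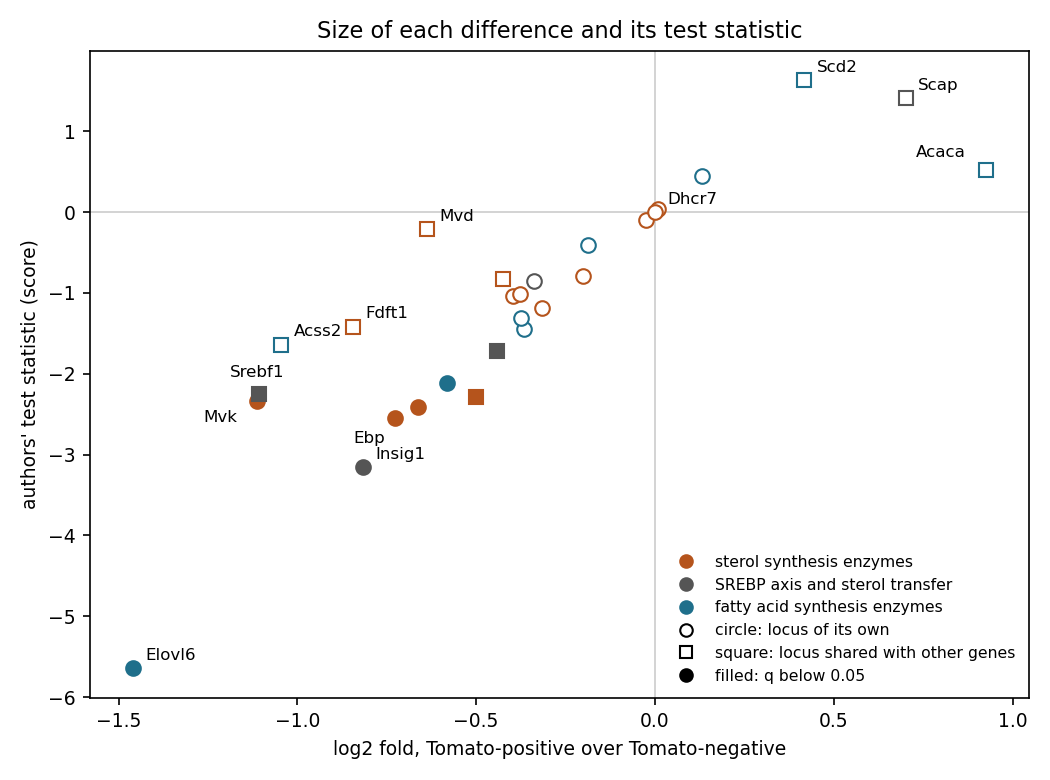
Log2 fold of the 28 tested members against the authors' test statistic (a score); circles have a locus of their own, squares share it with other genes, and filled symbols have q below 0.05. Elovl6 lies farthest down at -5.65, while Mvd and Acaca, in shared loci, have statistics of -0.21 and 0.53 at log2 folds of -0.64 and 0.93.

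The remaining genes of the same pathways, from lists chosen with earlier results of these data known, gave 31 lower and 6 higher calls among 70 tested. These were 44.3% and 8.57%, against 14.2% and 13.0% of all tested genes. Of 7 other sterol enzymes 3 were lower (42.9%) and 0 higher. Both sterol reductases that can act after Cyp51 fell, Tm7sf2 from 46.6 to 15.8 FPKM with q = 0.00426 and Lbr, also a nuclear lamina receptor, from 18.1 to 11.8 FPKM with q = 0.00475, both in the authors' deposited table. Both share their loci, Tm7sf2 in a locus of 4 genes and Lbr in a locus of 2. Together with the members, 7 of 21 tested sterol enzymes were thus lower, against 14.2% of all tested genes, and none higher. Idi1, Sqle and Msmo1 had log2 folds of -0.02, 0.01 and -0.01.

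Of 6 genes for processing SREBP and taking up lipoproteins 1 was higher (16.7%, against 13.0% of all tested genes) and 0 were lower, and the median log2 fold was 0.33. Vldlr, a receptor for triglyceride-rich lipoproteins, rose from 1.99 to 7.32 FPKM, and the authors' deposited table lists q = 0.000405. Among 11 genes of sterol export, esterification and the LXR receptors 1 was higher (9.09%) and 2 were lower (18.2%), shares near the 13.0% and 14.2% of all tested genes. Npc2, which hands cholesterol out of the lysosome, rose from 42.1 to 58.5 FPKM, for which the authors' deposited table gives q = 0.0307. Cyp27a1, which makes an oxysterol, fell from 34.8 to 5.81 FPKM with q = 0.000405, and Nr1h3, the gene of LXR alpha, from 3.72 to 1.05 FPKM with q = 0.0360, both in the authors' deposited table.

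Further fatty acid synthesis, elongation and activation genes were lower in 9 of 17 (52.9%) and higher in 2 (11.8%), with a median log2 fold of -0.63. The shares over all tested genes were 14.2% and 13.0%. Fa2h, which makes the hydroxylated fatty acids of barrier lipids, fell from 5.23 to 1.504 FPKM, Acsl1, which activates long chains, from 49.9 to 20.0 FPKM and Me1, a source of NADPH, from 131 to 57.6 FPKM. Fads3, in the same gene family as Fads1 and Fads2, rose from 2.07 to 22.2 FPKM, and Acsl3, an acyl-CoA synthetase of lipid droplets, from 7.18 to 15.1 FPKM. Fads3 had q = 0.000405 and Acsl3 q = 0.00643 in the authors' deposited table. The elongases, picked out after their values were seen, were lower wherever tested, with Elovl1 (532 to 307 FPKM), Elovl4 (293 to 190 FPKM), Elovl5 (26.3 to 14.5 FPKM) and Elovl7 (47.3 to 24.0 FPKM) beside Elovl6. Tecr, the reductase that completes each round of elongation, was also chosen after its values were seen and fell from 139 to 75.7 FPKM.

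Fatty acid oxidation genes were lower in 8 of 13 (61.5%, against 14.2% of all tested genes) and higher in 0, with a median log2 fold of -0.67. Ppara, a nuclear receptor that drives them, fell from 6.58 to 1.19 FPKM, Pdk4, which holds back glucose oxidation, from 4.53 to 1.66 FPKM and Acadm, an acyl-CoA dehydrogenase, from 47.1 to 19.1 FPKM. Triglyceride and lipid droplet genes were lower in 9 of 16 (56.3%) and higher in 2 (12.5%, against 13.0% of all tested genes). Lpl, which frees fatty acids from lipoproteins, fell from 4.44 to 0.805 FPKM, Cd36, a fatty acid transporter, from 10.6 to 2.02 FPKM and Gpam, which starts glycerolipid synthesis, from 6.53 to 2.68 FPKM. Hilpda, a droplet protein that blocks lipolysis, rose from 11.2 to 61.0 FPKM, and Plin2, which coats droplets, from 59.8 to 123 FPKM, with q = 0.000405 and q = 0.000758 in the authors' deposited table. Calls were thus mostly lower in the oxidation and the droplet lists, with these droplet proteins on the other side.

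**Figure D4:**
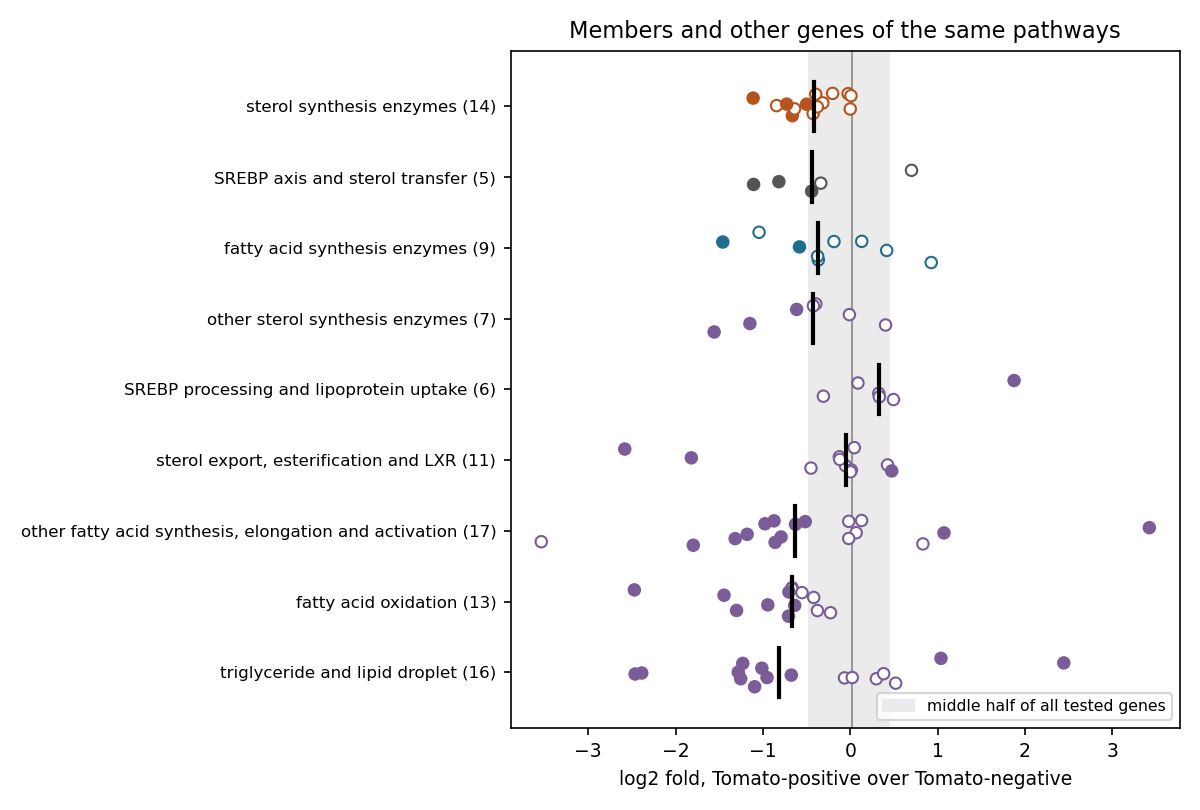
Log2 fold, Tomato-positive over Tomato-negative, of the tested genes in the 3 member lists and 6 other lists (number tested in brackets); filled points have q below 0.05, black bars are list medians, and the grey band runs from the lower to the upper quartile of all tested genes, -0.47 to 0.44. Medians of the sterol and fatty acid enzymes lie at -0.41 and -0.37, inside the band. Outside it lie those of fatty acid oxidation (-0.67), triglyceride and lipid droplet (-0.81) and other fatty acid synthesis, elongation and activation (-0.63). The band is a spread of single genes, not of list medians.

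Markers of other cells differed in the same comparison, in which 14.2% of all tested genes were called lower and 13.0% higher. EpCAM transcripts (Epcam) were present in both fractions, at 25.1 and 46.4 FPKM, and Bmi1 stood at 3.11 and 7.03 FPKM. Skeletal muscle markers were lower in 11 of 12 tested, with a summed level of 1827 and 130.0 FPKM, gland markers in 10 of 10 (328 and 13.7 FPKM), fibroblast markers in 6 of 6 (550 and 84.7 FPKM) and macrophage markers in 6 of 7 (361 and 106 FPKM). Adipocytes and sebocytes are known to make much fat. Adipocyte markers were lower in 2 of 4 tested, and their sum of 394 and 214 FPKM was mostly Fabp4, at 374 and 213 FPKM. Cfd, the other called gene of the list, fell from 14.0 to 0.863 FPKM, and the authors' deposited table lists q = 0.00109. Of the other 7, Retn had 2.01 and 0.0563 FPKM, Adipoq 1.45 and 0.309 FPKM, Cidec 0.777 and 0.0288 FPKM, Plin4 0.640 and 0.0513 FPKM and Plin1 0.312 FPKM and a listed 0, while Lep had 0.0124 FPKM and a listed 0 and Pck1 was listed at 0 in both. Sebocyte markers summed to 44.9 and 32.0 FPKM, mostly Cidea. Of 4 tested 1 was lower, a count too small to set against the 14.2% of all tested genes. Mc5r was listed at 0 in both fractions and Awat1 at 0.0332 FPKM and 0. Basal keratinocyte markers were higher in 6 of 6 (4186 and 19816 FPKM), with Krt14 the most abundant. Suprabasal markers were lower in 5 of 6 tested, while their sums were 13093 and 22805 FPKM. The first sum was mostly Lor, at 9582 FPKM against 2142 FPKM in Tomato-positive cells, and the second mostly Krt13 and Krt4, at 15058 and 4320 FPKM. The authors' deposited table gives Krt4 and Krt13 the status HIDATA, with no test and a 0 for Tomato-negative cells that cannot be read as a level, so the sums cannot be compared. The part of these cell mixtures in the lower levels of the synthesis genes was not tested.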

How the data were processed

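RNA-seq of 2 Tomato-negative and 2 Tomato-positive samples was used as the authors' deposited table. TopHat, Cuffdiff and build mm9 are named in the submitters' processing notes, with versions, annotation and strand handling not given in the sources used here. Each gene, per the file headers, has 1 FPKM value per fraction, which joins its samples, and a test statistic (a score), a p-value and a q-value by the authors. Depth per sample and spread between samples are therefore unknown, and the planned fits on values per sample were not made.

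Log2 folds were computed from the deposited FPKM without a pseudocount. The members and lists were chosen with earlier results of these data known. Members are named in full; from each other list, the called genes with the 3 largest log2 folds in each direction and at least 1 FPKM in the higher fraction are named. Some genes of the other lists count in the list totals but are not reported here by name. Each member symbol stood in 1 row; for other symbols with several, a tested row was preferred, then the one of highest mean FPKM. Lists are described by counts and medians, with no set test. Promoters came from RefSeq windows (GRCm38.p6), a build whose coordinates are not mixed with mm9. Counting, adjustment and motif search were tested on simulated data. Alternatives covered the q threshold, a repeated Benjamini-Hochberg adjustment, minimum FPKM and fold, pseudocounts, centring, rescaling without small RNA, and shared loci. The work was done in Python 3.11.15 with matplotlib 3.10.9, SciPy 1.17.1, NumPy 2.4.6 and pandas 2.3.3.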

Additional observations from a re-analysis of the deposited data

How the results depend on the processing

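No paired analysis was possible because the table holds 1 joined value per fraction, and for the same reason no sample could be left out in turn. With q below 0.01, 5 members were lower in place of 9, as Fdps, Srebf1, Srebf2 and Fads1 no longer passed, which left 1 of the 3 regulators, Insig1. With q below 0.1, or with an unadjusted p below 0.05, 1 member was higher in place of 0, Scd2. Lower members numbered 10 and 11 under these settings, and 6 with at least a 1.5-fold difference. The shares of all tested genes under these other q, p and fold thresholds were not computed, so these counts describe the members only. The members were also limited, after the data were seen, to loci holding no other gene. There 6 of 18 tested members were lower, against 17.0% of all tested genes in such loci. Among those loci the median of the SREBP axis list was -0.58, from 2 genes, and the sterol median lay 0.02 above the fatty acid median in place of 0.04 below it, so their order is not settled. Centring moved every log2 fold by -0.02 and rescaling without small RNA by -0.03, which turned Sqle from 0.01 to -0.014 and -0.018 and no other member. A repeated adjustment of the deposited p-values and a minimum of 1 FPKM left the member counts at 9 and 0. Depth is unknown, so a difference that missed the threshold may be undetected rather than absent.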
